A study of Mus musculus with 12 samples.

Results

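The comparison of rostral with caudal neocortex in mouse embryos of the outbred strain MF1 was read on 6 arrays, those whose labels name MF1, out of 12 arrays in the series. The other 6 arrays held the inbred strain C57, dissected and read in the same way, and both strains were taken at E13.5, counted in days of embryonic life. The MF1 arrays came from 3 pools, and 2 arrays per pool carried rostral and caudal RNA with the dyes Cy3 and Cy5 exchanged. A pool was therefore 1 replicate (n = 3), and its value was the mean of both arrays. Per the labels a pool held 3 embryos, whereas the design text asks for fewer as a minimum and states that rostral and caudal tissue was matched within single litters. Neither strain carried a named transgene, mutation or treatment. RNA was isolated with Trizol, and the small yield was amplified as cDNA by the SMART method, which uses the polymerase chain reaction. No source used here says whether the 3 pools came from separate litters, so p-values reflect only how far these pools differed, and that may be technical in part.

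Each value is the log2 ratio of rostral over caudal RNA from the same embryos, set against the median of its array. A value above 0 means relatively more of the transcript in the rostral pieces, and a value of 1 means a doubling. The sign is likely rather than known, because the dye used as numerator was inferred. A ratio gives no level, so the presence of cortical markers in the tissue could not be read; Emx1, a homeobox gene of the cortical primordium, had a value in all 3 pools (0.42, 0.17 and 0.11). In such tissue samples, fewer cells of a type and less RNA per cell cannot be told apart.

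At this stage the cortex is a sheet of dividing progenitors with a thin layer of young neurons, and its later areas have no visible borders yet. FGF proteins secreted at the rostral pole, and Wnt and BMP proteins secreted by the cortical hem at the caudomedial edge, set up opposing gradients of transcription factors in the progenitors. Pax6 is known to be high rostrolaterally, whereas Nr2f1, Emx2 and Lhx2 are known for caudal or caudomedial bias. Neuron production also runs ahead at the rostrolateral end.

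The MF1 arrays had values for 19453 to 20997 of 21998 probes, and 7.73% ± 2.72 (SD, n = 6 arrays) of probes were without a value, against 14.6% ± 2.24 for C57. The spread of the ratios, as an SD from the median absolute deviation, had a mean of 0.487 over the MF1 arrays and of 0.745 over those of C57. Since each array held 1 strain, strain and set of arrays cannot be told apart.

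Pool 3 stood apart from the other 2 pools. Across features (genes, or probes without a gene name), pool 1 and pool 2 had a Spearman correlation of 0.244 (15781 features), whereas pool 3 had -0.188 with pool 1 and -0.194 with pool 2. Features share arrays and dyes, so these correlations describe the arrays and carry no p. The likeness of pools 1 and 2 lay between arrays of the same dye orientation, with correlations of 0.315 for rostral RNA in Cy3 and 0.265 for rostral RNA in Cy5. Between their arrays of opposite orientation the correlations were 0.00837 and 0.0252. Whether a dye bias took part in this was not tested. Pool 3 against the other pools gave -0.22, -0.192, -0.138 and -0.154 across orientations, and between -0.0736 and -0.0573 within an orientation. Inside a pool, both arrays correlated at 0.116 in pool 1, 0.0402 in pool 2 and 0.223 in pool 3. Pool 3 thus had the closest pair of arrays, and over all features it correlated weakly, below 0, with the other pools. Values that rest on pool 3 are therefore given with and without it.

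**Figure D1:**
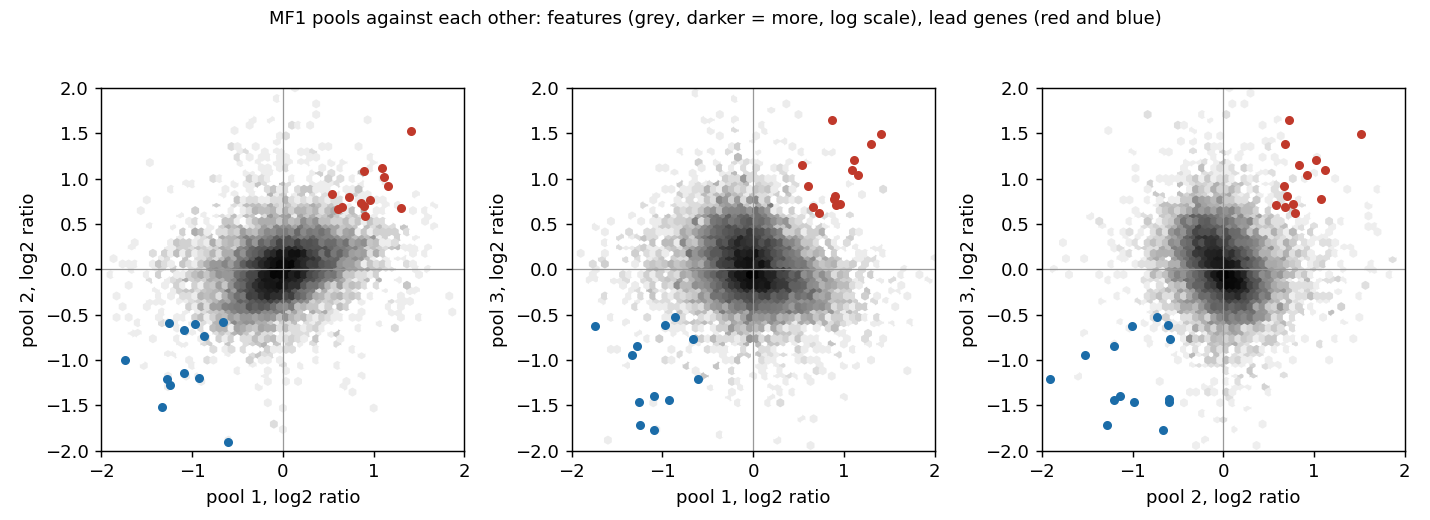
Log2 ratio of each feature in 1 MF1 pool against another (grey hexagons, darker for more features on a log scale; axes cut at -2 and 2), with the 28 lead genes as points, red above 0 and blue below. The cloud rises between pools 1 and 2 and falls between pool 3 and either of them, while the lead genes, chosen for 1 sign on all 6 arrays, lie in the same corner of each panel.

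Over all 17844 features measured in at least 2 MF1 pools, of which 13667 were named genes, 0 passed the threshold of 0.05 after Benjamini-Hochberg adjustment (limma, pool means against 0; smallest adjusted p = 0.9996), that is, 0% were called. An unadjusted p under 0.05 was reached by 722 features (4.05%), 378 above 0 (2.12%) and 344 below (1.93%). With 1 spread shared with the C57 pools the count was 628 (4.36%), and again 0 after adjustment. Without pool 3 limma gave 1236 of 15781 features (7.83%) at that level and still 0 after adjustment (smallest adjusted p = 0.587). With arrays not set to their medians the same level held 1120 features, of which 12.9% lay above 0 in place of 52.4%, and the median of all features was -0.21, so that every ratio here is relative to the array's median. All 3 pools had values for 14949 features, and 3162 of these had the same sign in all 3 pools (21.2%). The same sign on all 6 arrays was found for 496 of 14962 features (3.32%), 265 above 0 (1.77%) and 231 below (1.54%). On the 4 arrays of pools 1 and 2 alone, 3618 of 15792 features had 1 sign (22.9%); leaving out pool 1 gave 1560 and leaving out pool 2 gave 1867. Genes are described below by their values in each pool, and none of them passed over all features.

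The genes with the steadiest rostral ratios included secreted regulators of FGF and Wnt signalling, and the caudal side included a matrix protein of TGF-beta signalling. Lead genes were the 14 named genes per side of smallest p among those with 1 sign on all 6 arrays. Since this rule used the MF1 values themselves, their MF1 ratios are a description. RefSeq promoter windows (the 250 bases before the start, build GRCm38.p6) were found for 20 of the 28 lead genes, and those of Scrn1, Fgfbp3 and Ltbp1 are shown as examples whose ratios had 1 sign on every MF1 array and in every C57 pool. Scrn1 lies on the minus strand at chr6:54566383-54566632, Fgfbp3 on the minus strand at chr19:36919600-36919849, and the first of 2 listed starts of Ltbp1 on the plus strand at chr17:75005279-75005528. Capitals mark matches to CGGAAG, the core bound by ETS factors such as Etv1 and Etv5, on either strand.
Scrn1: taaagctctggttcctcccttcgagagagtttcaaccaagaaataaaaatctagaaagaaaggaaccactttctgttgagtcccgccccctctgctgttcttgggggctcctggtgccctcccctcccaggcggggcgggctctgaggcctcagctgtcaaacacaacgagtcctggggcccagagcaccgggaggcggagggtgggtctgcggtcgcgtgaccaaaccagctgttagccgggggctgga
Fgfbp3: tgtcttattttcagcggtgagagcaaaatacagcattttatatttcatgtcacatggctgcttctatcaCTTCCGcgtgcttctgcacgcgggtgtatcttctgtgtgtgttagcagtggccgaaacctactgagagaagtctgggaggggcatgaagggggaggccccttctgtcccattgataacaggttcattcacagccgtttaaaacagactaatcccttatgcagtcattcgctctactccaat
Ltbp1: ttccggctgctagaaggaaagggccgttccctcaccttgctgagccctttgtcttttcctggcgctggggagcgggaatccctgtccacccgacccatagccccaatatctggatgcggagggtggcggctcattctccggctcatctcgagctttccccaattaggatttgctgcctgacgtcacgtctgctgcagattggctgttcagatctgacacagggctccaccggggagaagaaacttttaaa
The Fgfbp3 window held 1 such match, on the opposite strand, beginning 181 bases before the start. Among the lead genes 2 had a match, Fgfbp3 and Ppp1cc, while 13.6% of all 32851 windows of this length held one. The nuclear receptor half-site AGGTCA was found for 1 lead gene, 4933436I01Rik (14% of all windows), and the homeodomain core TAATTA for 0 (4.84% of all windows). Both strands were searched, neighbouring matches can share end letters and were counted separately, and a match is a description of letters only.

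Scrn1, a secernin found in the cytosol, had log2 ratios of 1.41, 1.52 and 1.5 in pools 1 to 3. Its 6 arrays ran from 1.17 to 1.88, and the mean was 1.48 ± 0.057 (SD, n = 3), a 2.78-fold higher rostral signal (limma, unadjusted p = 0.000358, adjusted p = 0.9996). Sfrp1, a secreted protein that binds Wnts, gave 1.09, 1.12 and 1.10, with both of its probes alike at 1.14 and 1.06. Its arrays with rostral RNA in Cy3 (1.40, 1.46 and 1.17) all lay above those with rostral RNA in Cy5 (0.78, 0.78 and 1.03), a difference between orientations that the pool means of 1.10 ± 0.017 do not show. Fgfbp3, a secreted carrier that frees FGFs from the matrix, gave 1.16, 0.92 and 1.04, and its 6 arrays ran from 0.87 to 1.28. In all 3 genes pool 3 lay between the other pools.

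Cdh10, a type II cadherin, had ratios of 0.89, 1.08 and 0.78 over 3 probes at 0.92, 1.07 and 0.59. Pantr1, a long noncoding RNA beside the transcription factor gene Pou3f3, had 0.90, 0.70 and 0.81, while Pou3f3 itself, named after its values were seen, had 0.02, 0.11 and 0.05. Etv1, a transcription factor switched on by FGF signals, had 0.91, 0.59 and 0.71. Tagln2, an actin-binding protein, gave 0.61, 0.67 and 0.92, and Dct, an enzyme of melanin synthesis, gave 0.54, 0.83 and 1.15. In these 5 genes every pool lay further from 0 than the SD of the pools, which the choice by smallest p favours. Dct belongs to the list of eye and pigment cells, 11 of whose 17 measured members lay above 0 with a median of 0.07; whether pigment cells took part in its ratio was not tested.

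Other rostral lead genes were less even. Gnal, a G protein subunit of olfactory and striatal neurons, averaged 1.12 ± 0.093, but its probes were at 2.04 and 0.19. Sall4, a zinc finger factor of early embryonic cells, had 1.30, 0.68 and 1.38. Tnfsf11, the RANK ligand, had 0.87, 0.73 and 1.64, and its highest array, pool 3 with rostral RNA in Cy5, read 3.06 against 0.23 to 1.26 on the other 5; without pool 3 its mean was 0.80 in place of 1.08. Dnaaf2, which helps assemble dynein arms of cilia, had 0.72, 0.79 and 0.62 from arrays as far apart as 0.18 and 1.32. The remaining lead genes above 0 were Sit1, an adaptor of T cells, with a mean of 0.82 ± 0.13, and Pdzph1 with 0.67 ± 0.016.

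On the caudal side the lead genes included Ltbp1, which tethers latent TGF-beta to the matrix, with ratios of -0.92, -1.20 and -1.44. Its mean was -1.19 ± 0.26 (SD, n = 3), a 2.28-fold lower rostral signal (limma, unadjusted p = 0.00188), and without pool 3 the mean was -1.06. Rbm20, a regulator of splicing, gave -1.09, -1.14 and -1.40, with probes at -0.47 and -1.95 that were each below 0 in all 3 pools. Tenm2, a teneurin through which neurons recognise one another, gave -0.97, -0.60 and -0.62. Its probes were at -0.67, -1.03 and -0.49, and that last one lay at -0.08 and -0.06 in pools 2 and 3. Ppp1cc, a catalytic subunit of protein phosphatase 1, gave -1.24, -1.28 and -1.72 from arrays between -2.32 and -0.17. These 4 genes kept 1 sign in every pool, which the rule had fixed. In each of them the arrays of at least 1 pool lay further apart than the pools did.

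Ttr, the thyroid hormone carrier made by choroid plexus, had -1.28, -1.20 and -0.84, and its 6 arrays lay between -1.29 and -0.72. Pf4, a chemokine of platelets and tissue macrophages, had -1.34, -1.52 and -0.94. Adgrl3, a latrophilin adhesion receptor, had -1.25, -0.59 and -1.46, and Diras2, a Ras-like GTPase of brain, had -0.67, -0.59 and -0.77. Both arrays of each pool were below 0 for these genes, as the rule required. Cryab, a small heat shock protein, ran from -1.74 in pool 1 to -0.63 in pool 3. Eml6, a microtubule-binding protein, averaged -1.64 ± 0.75, the lowest mean of the lead genes, with an array in pool 1 at -4.52 beside its dye swap at -0.40. The other lead genes below 0 were Ceacam2 (mean -1.18), Rps4l (-0.71), 1700126H18Rik (-1.36) and 4933436I01Rik (-1.24). Leaving out pool 3 moved no lead gene to the other side of 0, which is no check, since the rule asked for 1 sign on every array. The largest shift was that of Ceacam2, to -0.88.

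**Figure D2:**
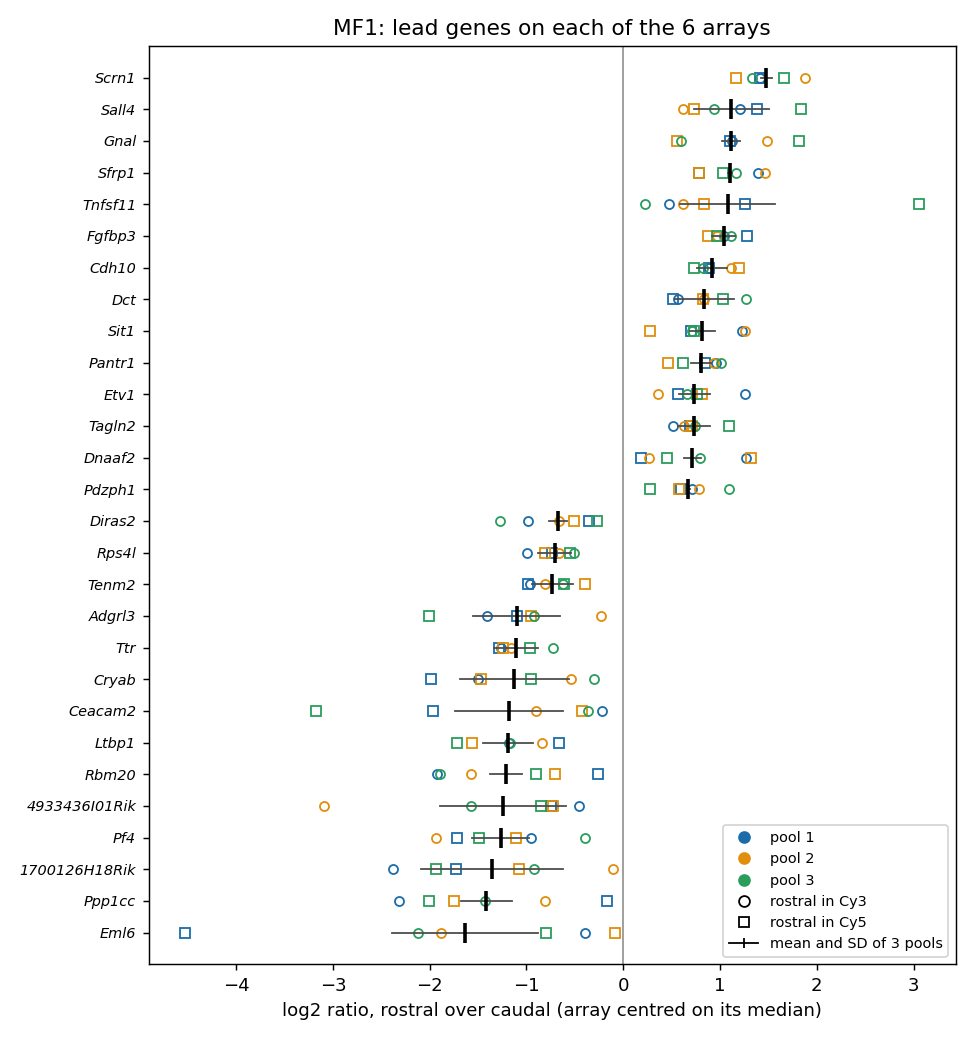
Log2 ratio of rostral over caudal RNA on each of the 6 MF1 arrays for the 28 lead genes (circles, rostral RNA in Cy3; squares, rostral RNA in Cy5; colours, pools), with the mean and SD of 3 pools as a bar and line. Scrn1 lies furthest above 0, Eml6 has the lowest mean and the widest arrays, and Tnfsf11 has 1 array at 3.06.

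Genes with a known rostral or caudal bias mostly lay on their known side. Of the 12 measured rostral reference genes 11 had a mean above 0 (51.4% of all features), with a median of 0.33, and 3 were above 0 at an unadjusted p under 0.05 (2.12% of all features). The list's median was above 0 in each pool (0.33, 0.24 and 0.32) and stayed above 0 under every setting run, at 0.11 with arrays not set to their medians. Of the 6 measured caudal reference genes 4 lay below 0 (48.6%), with a median of -0.09, and 2 were below 0 at that p (1.93%). The direction of the ratios was judged by these lists in earlier work on the same data, so they are not independent evidence of it. By limma 0 of these genes passed over all features.

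Among the FGF ligands of the rostral pole, Fgf8 had ratios of 0.42, 0.04 and 0.35 in pools 1 to 3, with 5 of 6 arrays above 0 (mean 0.27 ± 0.21). Fgf17 had 0.02, 0.12 and 0.29, Fgf18 0.08, 0.19 and -0.02, and Fgf15 0.0015, 0.065 and -0.08. The means of all 4 ligands were below the median SD of all features, 0.302, with that of Fgf8 close to it, and Fgf17 and Fgf18 turned below 0 (-0.02 and -0.34) when only arrays with rostral RNA in Cy5 were read, and below 0 (-0.07 and -0.13) with arrays not set to their medians. Among the transcription factors that FGF signals switch on, Etv1 had the highest mean, with a mean of 0.73 ± 0.16 (limma, unadjusted p = 0.00818). Etv5 had 0.59, 0.47 and 0.48, yet its probes disagreed: 1 gave 1.10, 0.65 and -0.04, and the other 0.08, 0.28 and 1.0, so its SD of 0.066 holds for their mean alone. Etv4 had 0.31, 0.15 and -0.12 and lay at -0.10 with arrays not set to their medians. Among the feedback inhibitors that FGF signals induce, Spry2 had 0.66, 0.75 and 0.25, a mean of 0.55 ± 0.27 that was 0.71 without pool 3. Spry1 was measured in 2 pools (0.29 and 1.06) from arrays as far apart as -2.40 and 2.99, and Spry4 ran from -0.50 to 1.31. Dusp6, a phosphatase that dampens ERK, had 0.09, 0.35 and 0.05, a mean of 0.16 that was -0.05 with arrays not set to their medians. The wider FGF list (33 of 38 genes measured) had 21 members above 0 and a median of 0.07, but its median ran from 0.19 and 0.10 in pools 1 and 2 to -0.06 in pool 3. In limma 6.06% of its measured members had an unadjusted p under 0.05, against 4.05% of all features. These were Fgfbp3 and Fgf1, an FGF measured in pools 1 and 2 alone (0.67 and 0.62) and named outside the rule after its values were seen.

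Pax6, which directs rostrolateral identity and progenitor division, had 0.33, 0.28 and 0.55, and all 6 arrays were above 0 (mean 0.38 ± 0.14; limma, unadjusted p = 0.0658). On the caudal side Nr2f1, a nuclear receptor that promotes sensory and caudal areas, had -0.49, -0.57 and -0.89 with 0 of 6 arrays above 0. Its mean of -0.65 ± 0.21 (limma, unadjusted p = 0.0154) came from probes at -1.07 and -0.23. Lhx2, a selector of cortical identity, had -0.31, -0.48 and -0.45, and all 6 arrays were below 0. Fgfr3, an FGF receptor with caudal bias, had smaller ratios of -0.21, -0.13 and -0.02. Emx2, known for a caudomedial gradient, did not lie below 0 in MF1: it had 0.40, 0.10 and -0.04, with 3 of 6 arrays above 0, and a mean of 0.15 that was -0.06 with arrays not set to their medians. Crym (0.15, -0.34 and 0.04) and the teneurin Tenm3 (-0.22, 0.32 and -0.003) had pools on both sides of 0.

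**Figure D3:**
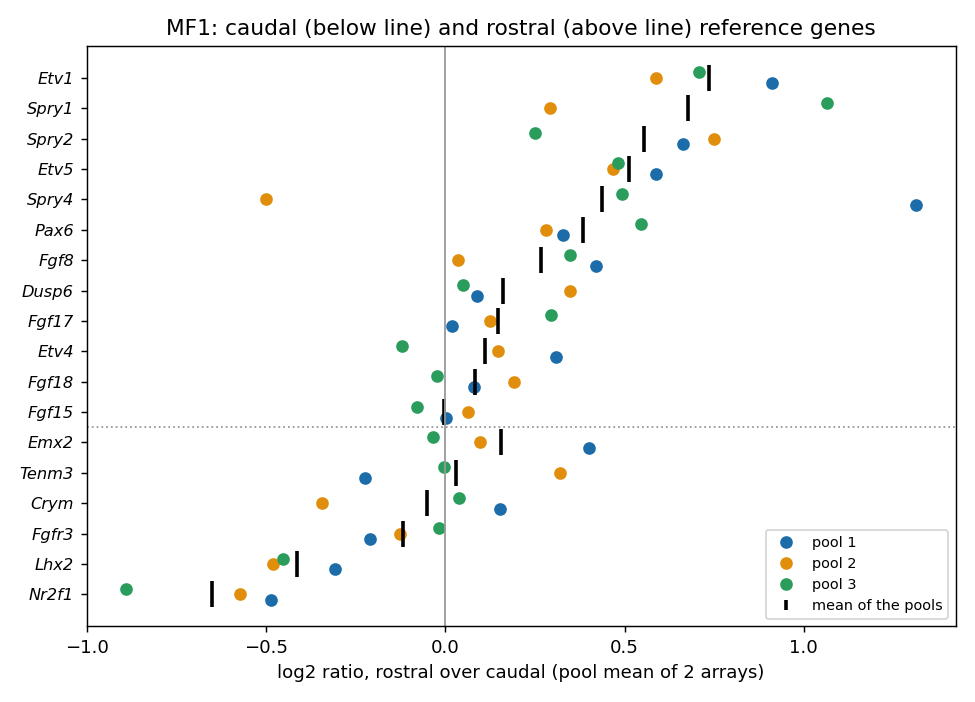
Log2 ratio of rostral over caudal RNA in each MF1 pool (points) and the mean of the pools (bars) for the 12 rostral reference genes above the dotted line and the 6 caudal ones below it. Etv1, Etv5, Spry2, Pax6, Fgf8, Fgf17 and Dusp6 have every pool above 0, Nr2f1, Lhx2 and Fgfr3 every pool below, and Emx2 and Tenm3 have means above 0.

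Wnt, BMP and other signalling genes were led by single members. Of 24 measured Wnt ligands and hem genes 10 lay above 0 and 14 below (median -0.05). In limma 12.5% of them had an unadjusted p under 0.05, against 4.05% of all features. These were Dvl1, a cytoplasmic relay of Wnt signals (1.42, 0.09 and 1.0), and 2 genes named outside the rule with 2 pools each. The latter were the Wnt amplifier Rspo2 (1.03 and 0.60) and the hem factor Lmx1a (-1.17 and -0.50). The ligands Wnt3 (-0.26, -0.22 and -0.77) and Wnt7b (0.52, 0.18 and 0.08) had pools on 1 side of 0 each, on opposite sides; Wnt3 gave 0.39 when only arrays with rostral RNA in Cy3 were read. Among 23 Wnt antagonists and receptors, Wif1, a secreted Wnt inhibitor, lay opposite to Sfrp1 at -0.44, -1.17 and -1.44. The BMP and TGF-beta list had a median of -0.004, with 15 of 34 members above 0; after Ltbp1 its smallest p was that of Fst, follistatin, which traps activins (-0.32, -0.27 and -0.45). The Notch list had 15 of 24 members above 0, among them Mfng, a fringe enzyme that modifies Notch (0.38, 0.52 and 0.47), but its median was 0.26, 0.07 and -0.17 in the 3 pools. Mfng averaged 0.74 on arrays with rostral RNA in Cy3 and 0.18 on those with rostral RNA in Cy5. Among Hedgehog genes the co-receptor Gas1 had 1.15, 0.96 and 0.42 and the co-receptor Boc 1.12, 0.38 and 0.06, both lowest in pool 3. Of the retinoid list, Rlbp1, a carrier of retinaldehyde, had 0.96, 0.51 and 0.64. Among 45 area and guidance molecules, which had 27 above 0 and a median of 0.03, Efna5, an ephrin that steers thalamic axons, had 0.53, 1.03 and 0.49 alongside Tenm2. Efna5 averaged 1.12 on arrays with rostral RNA in Cy3 and 0.245 on those with rostral RNA in Cy5.

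Cadherins, which sort cells by adhesion, had 3 of 21 measured members above 0 at an unadjusted p under 0.05 (2.12% of all features) and 0 below (1.93%): Cdh10, Cdh2 (0.91, 0.58 and 0.29) and Cdh9 (0.96, 0.34 and 0.48). Cdh9 averaged 1.11 on arrays with rostral RNA in Cy5 but 0.075 on those with rostral RNA in Cy3. The median of the cadherins was 0.14 and lay above 0 in each pool (0.23, 0.05 and 0.14), it was 0.07 without pool 3, and 10 members lay below 0. Transcription factors of progenitors had 18 of 23 members above 0 and a median of 0.16 (0.25, 0.11 and 0.06 by pool). Hmga2, a chromatin protein of young progenitors, had 0.98, 1.21 and 0.48, and Zic1 had 1.07, 0.20 and 0.99. Pou3f2, a POU factor of upper-layer progenitors, had 0.33, 0.59 and 0.71 from probes at -0.06 and 1.15. With arrays not set to their medians the 3 medians of cadherins, progenitor factors and cell cycle genes were -0.07, -0.05 and -0.07, each above the -0.21 of all features.

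Genes of dividing cells lay above 0 in most cases. Of 85 measured cell cycle genes 68 had means above 0, against 51.4% of all features, and the median was 0.15. The pool medians were 0.12, 0.04 and 0.26, and 30 of the 83 members with all 3 pools were above 0 in every pool (11.4% of all features) while 3 were below in every pool (9.79%). At an unadjusted p under 0.05 there were 4 of 85 members (4.71%), a share near the 4.05% of all features. They were Ccnd1, which drives entry into the cycle (0.45, 0.36 and 0.86), Ccna2, of DNA synthesis and mitosis (1.16, 0.50 and 0.25), the clamp loader subunit Rfc2 (0.51, 0.68 and 0.44) and, named outside the rule with 2 pools, its partner Rfc5 (1.21 and 0.86). Without pool 3 the list's median was 0.09. It was 0.24 from arrays with rostral RNA in Cy3 and 0.04 from those with rostral RNA in Cy5. Pool 3 was the highest for 45 of the 83 members with all 3 pools (54.2%), against 39.4% of all features. It was the lowest for 22 (26.5%), against 37.2% of all features. Dut (0.07, 0.04 and 1.14) and Ube2c (-0.12, -0.08 and 1.15) show how far that pool could lead. Both were named after their values were seen.

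Genes along the path from progenitor to neuron had unlike medians. Of all features 51.4% had a mean above 0. Radial glia genes, the stem cells of the cortex, had 14 of 22 above 0 and a median of 0.05, with Ptn, a growth factor, at 0.41, 0.32 and 0.54. Intermediate progenitor genes had 17 of 21 above 0 and a median of 0.13, with pool medians of 0.31, 0.13 and 0.14. Postmitotic neuron genes were split, with 18 of 39 above 0 and a median of -0.003. Their smallest p were those of the layer factors Foxp1 (0.60, 0.44 and 0.23) and Bcl11b (0.75, 0.61 and 0.11). In limma 0 of 39 reached an unadjusted p under 0.05, against 4.05% of all features. Pool 3 was below both other pools in 7 and above both in 8 of the 20 intermediate progenitor genes with 3 pools (35% and 40%). It was below both in 18 and above both in 15 of the 39 neuron genes (46.2% and 38.5%). These shares were near those of all features, 37.2% below both and 39.4% above both. Among the members of these 2 lists, 5 neurogenic genes picked after their values were seen had their lowest value in pool 3, which the lists as a whole did not. Tbr1, of early cortical neurons, gave 1.36, 0.49 and -0.52, and Neurog2, the proneural factor, gave 1.17, 0.30 and -0.45. Dll1, the Notch ligand of newborn neurons, gave 1.20, 0.22 and -0.43, Dcx, of migrating neurons, 0.99, 0.33 and -0.43, and Eomes, of intermediate progenitors, 0.63, 0.19 and -0.43. All 5 genes were highest in pool 1, intermediate in pool 2 and below 0 in pool 3, but this order describes the picked genes and not their lists. C57 values are given for 2 of the 5 only. In the C57 pools Tbr1 was above 0 in all 3 (0.12, 0.95 and 0.77), and Neurog2 was at 0.30, 0.17 and 0.17.

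The pools also differed in genes of basic metabolism. The median of 65 ribosomal protein genes was -0.12, -0.23 and 0.39 in pools 1 to 3, and 58 of them were higher in pool 3 than in both other pools (89.2%), which was so for 39.4% of all features. The 72 oxidative phosphorylation genes followed the same pattern, with medians of -0.03, -0.10 and 0.37 and 58 of 70 highest in pool 3 (82.9%). Their medians over all 3 pools, 0.04 and 0.05, were -0.16 and -0.08 without pool 3. The embryonic globins Hbb-y (-0.64, -1.0 and 0.89), named after its values were seen, and Hba-x (-0.41, -0.71 and 0.33) were also highest in pool 3. Their list did so less: 8 of 15 red blood cell genes were highest in pool 3 (53.3%), against 39.4% of all features. Another 4 were lowest there (26.7%), against 37.2% of all features. The medians of that list were -0.19, -0.13 and 0.10. Blood vessel genes (0.08, 0.08 and -0.12), ion channels (0.02, 0.05 and -0.17) and Hedgehog genes (0.13, 0.08 and -0.11) had the opposite pattern. In all, 13 of 32 lists had a pool 3 median on the other side of 0 from both other pools. The lists share members, and some of these medians lay close to 0, as for the ventral telencephalon in pool 3 (-0.0025). The part of red blood cells and of these metabolic genes in the other ratios of pool 3 was not tested.

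**Figure D4:**
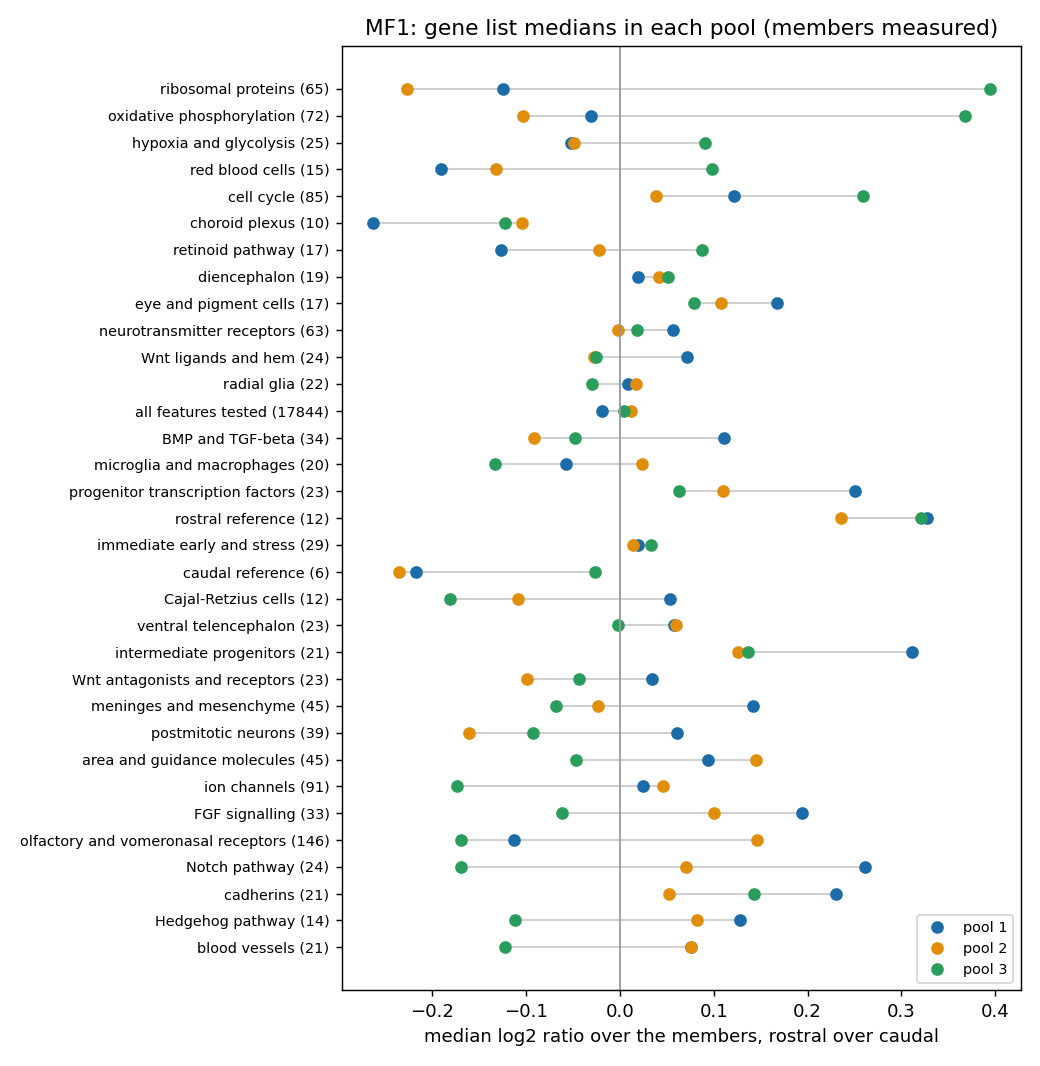
Median log2 ratio of rostral over caudal RNA over the measured members of each gene list in MF1 pools 1, 2 and 3 (points; number of members in brackets), ordered by how far pool 3 lay above the other pools. Ribosomal and oxidative phosphorylation genes have pool 3 furthest to the right, and the rostral reference genes have all 3 pools between 0.24 and 0.33.

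Markers of neighbouring tissue were read as whole lists. Choroid plexus genes lay below 0 in 8 of 10 measured cases (median -0.13; pools -0.26, -0.10 and -0.12). Ttr was far lower than the next members Aqp1 (mean -0.37), Kl (-0.32) and Cldn2 (-0.22), while Folr1 was at -0.004. Cajal-Retzius genes, of the neurons that leave the hem and other edges, lay below 0 in 9 of 12 cases (median -0.11), but Reln, their defining product, was at 0.42, -0.01 and -0.22. The diencephalon list had a median of -0.002 and that of the ventral telencephalon of 0.01, where Dlx5, of interneuron precursors, had -0.71, -0.02 and -0.68. Meninges and mesenchyme had 27 of 45 above 0 with medians of 0.14, -0.02 and -0.07, led by Fbln2, a matrix protein (0.49, 0.54 and 0.45). Fbln2 averaged 0.77 on arrays with rostral RNA in Cy3 and 0.22 on those with rostral RNA in Cy5. Microglia and macrophage genes had a median of -0.04. Apart from Pf4, no member had an unadjusted p under 0.05 in limma, so that 5% were at that level against 4.05% of all features. The means of C1qa, C1qb and C1qc lay between -0.12 and 0.08. In each of these lists ratios of members were spread on both sides of 0, and their part in the lead genes' ratios was not tested.

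The C57 arrays, which the choice of lead genes did not use, gave a check on them. Of the 14 lead genes above 0, 10 had at least 2 C57 pools and 7 of these had a C57 mean above 0; of the 14 below 0, 11 had at least 2 C57 pools and 8 had a mean below 0. Of those with 3 C57 pools, 6 of 9 above 0 and 4 of 8 below 0 kept their side in every C57 pool. Of all features with 1 sign on the 6 MF1 arrays and 3 C57 pools, 37.5% of those above 0 did so. For those below 0 the share was 41.4%. On each side 1 lead gene had every C57 pool opposite. For Fgfbp3 (1.22, 1.04 and 1.01), Sfrp1 (0.85, 1.30 and 0.80), Pantr1 (0.96, 0.74 and 0.77) and Tenm2 (-0.74, -0.87 and -0.85) the range of the C57 pools overlapped that of MF1. Gnal (-0.57, 0.13 and 0.26) and Ttr (1.19, -1.72 and -1.69) had C57 pools on both sides of 0. Over all features with 1 sign on the 6 MF1 arrays and 3 C57 pools, 133 of 208 above 0 (63.9%) and 125 of 162 below 0 (77.2%) had a C57 mean on the same side, against 58.2% of 10596 features with 3 pools in each strain. Seen from the other side, features with 1 sign on all 6 C57 arrays had that sign in 70.1% of 736 cases in MF1 pool 3, in 61.7% of 721 cases in pool 1 and in 49.4% of 711 cases in pool 2. The same shares over all features were 56.6%, 54.7% and 48.4%. The order of the pools changed with the size of the C57 ratio. Where the C57 mean was at least 0.5 in size, the shares were 67.8% of 239 features in pool 1, 58.6% of 237 in pool 2 and 65% of 243 in pool 3. At a size of at least 1 they were 72.1% of 43, 60.5% of 38 and 57.1% of 42, so no pool was nearest to C57 at every size.

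**Figure D5:**
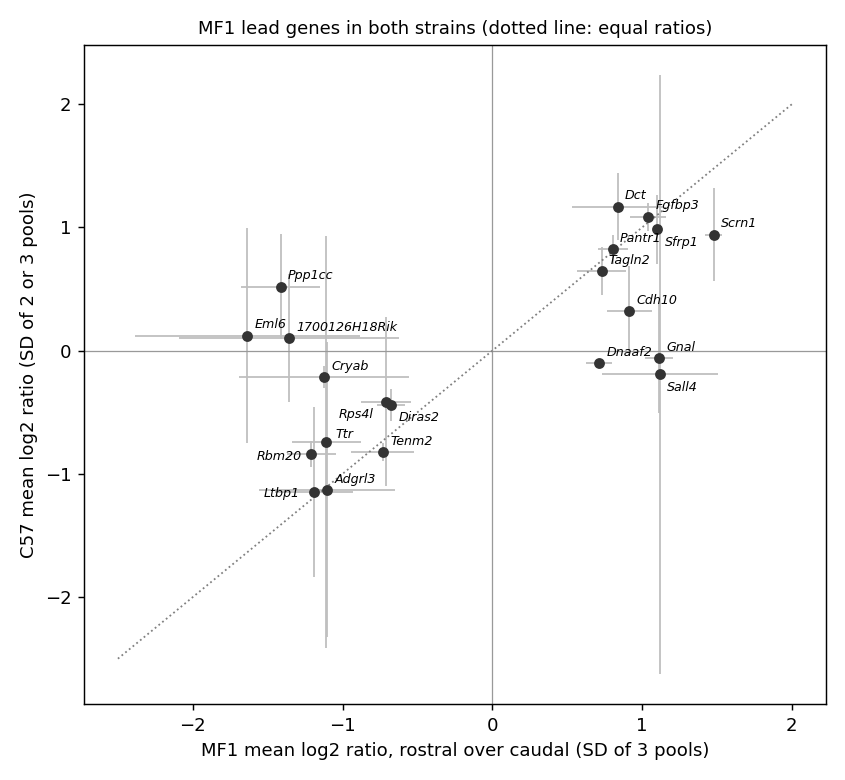
Mean log2 ratio in MF1 (horizontal, SD of 3 pools) against C57 (vertical, SD of 2 or 3 pools) for the lead genes with at least 2 C57 pools; the dotted line marks equal ratios. Fgfbp3, Sfrp1 and Pantr1 lie near the line, whereas Ppp1cc and Dnaaf2 lie on opposite sides of 0 in the strains.

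The difference between the strains, MF1 minus C57, passed for 0 of 14418 features (limma, 1 spread shared by 6 pools; smallest adjusted p = 0.532; 0% called), and 879 had an unadjusted p under 0.05 (6.1%), 520 with MF1 above C57 (3.61%) and 359 below (2.49%). Without MF1 pool 2 there were 526. Among the genes of smallest p with all 6 pools, Ppp1cc had an MF1 mean of -1.41 against 0.52 in C57, a difference of -1.93 ± 0.30 (SE; limma, unadjusted p = 0.000382). Ephx3, an epoxide hydrolase, was at -0.03, 0.20 and -0.06 in MF1 and at -1.40, -2.10 and -2.11 in C57. Scin, which severs actin filaments, was at -0.48, -0.18 and 0.09 in MF1 and at 2.11, 0.92 and 2.16 in C57. These 3 genes, and the other 5 named for this difference, were chosen by smallest p, which favours pools that do not overlap between the strains. How many of all features had such pools was not counted. Rdh10, which makes retinaldehyde for retinoic acid synthesis, had a mean of 0.13 in MF1 and -1.02 in C57, Mafg, a small Maf factor, 0.22 and -0.79, and the transporter Slc38a3 0.11 and 1.21. Clu, clusterin, was below 0 in MF1 (-1.05, -0.70 and -0.36) and above 0 in C57 (0.34, 0.41 and 0.90), with MF1 probes at -0.47 and -1.06. For the transcript 4930503H13Rik the even MF1 pools (1.06, 1.23 and 1.11) hid arrays from -0.61 to 2.75. Nr2f1, which was chosen by its list, had a smaller size in MF1 (-0.65) than in C57 (-1.63), a difference of 0.97 ± 0.24 (SE; limma, unadjusted p = 0.00508) that did not pass over all features.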

How the data were processed

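The authors deposited 1 log2 ratio between the dyes per probe and 2-colour array; that the scale is log2 was read from the values, and the sources used here do not give image analysis, background correction or normalization. Values at the deposited ceiling of 16.61 (a ratio of 100000; 431 values on the MF1 arrays) were dropped, each array's median was subtracted, arrays with rostral RNA in Cy3 were turned, and both arrays of a pool were averaged. The ratio was read as Cy5 over Cy3, which is inferred, so the direction is likely only. Probes of a gene were averaged (1069 genes); 16864 probes had 1 gene symbol, 139 several and 4995 none. Pool means of features with at least 2 pools were tested against 0 with limma 3.58.1 (R 4.3.3; lmFit, eBayes, Benjamini-Hochberg over all features), and the strain difference with 1 spread shared by 6 pools. The steps were tested on simulated data. Named genes were 14 per side with 1 sign on 6 arrays and smallest p, all measured reference genes, the 3 of smallest p with 3 pools in each other list, and 4 per side for the strain difference. Other genes were named after their values were seen (Emx1, Hbb-y, Cldn2, Folr1, Reln and the C1q genes among them). The members and lists were chosen with earlier results of these data known. Pool numbers did not pair the strains: deviations of same-numbered pools correlated at -0.219, 0.122 and 0.0176. There were 0 columns of other samples. Alternatives covered centring, scaling, the ceiling, missing values, single orientations, an array-level fit and each pool left out. Depth has no meaning for arrays; the number of pools limits the precision.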

Additional observations from a re-analysis of the deposited data

Results flagged for a closer look

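Single arrays lay far from the other 5 for 3 genes among 48 sets of 6 MF1 values examined (genes and array-wide measures), where chance alone sets about 1 in 20 such groups apart. They were Tnfsf11 in pool 3 with rostral RNA in Cy5 (3.055), Tenm3 in pool 1 with rostral RNA in Cy5 (-0.534) and Dusp6 in pool 2 with rostral RNA in Cy5 (0.709). The immediate early and stress genes had medians above 0 in all 3 MF1 pools (0.02, 0.01 and 0.03) and below 0 in all 3 C57 pools, with an MF1 median of 0.006667; the difference between strains was not tested.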

How the results depend on the processing

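By limma 0 features passed after adjustment in MF1 and in the strain difference under each setting run, with a smallest adjusted p in MF1 between 0.364 and 1. With arrays not set to their medians, 1120 features in place of 722 had an unadjusted p under 0.05, 12.9% of them above 0 in place of 52.4%, the median of all features was -0.207 in place of 0.00729, and 1236 in place of 496 had 1 sign on all 6 arrays. Leaving out 1 pool gave 487 to 1236 features at that p, the highest without pool 3, and 526 to 943 for the strain difference, the lowest without MF1 pool 2. One sign on the 4 arrays left, a setting chosen after seeing the data, was found for 1560 to 3618 features. With the pool number as a replicate block the strain difference had 439 features at that p, against 497 without the block on the same 10596 features; the numbers did not pair the pools. With arrays not set to their medians, means turned for Dusp6 (-0.0533), Emx2 (-0.0603), Ephx3 (-0.175), Etv4 (-0.103), Fgf17 (-0.0683), Fgf18 (-0.132), Rdh10 (-0.0845), Slc38a3 (-0.105), Tcf7l2 (-0.00517) and Tenm3 (-0.184). From arrays with rostral RNA in Cy5 they turned for Aqp1 (0.042), Egln3 (0.00133), Fgf17 (-0.0157), Fgf18 (-0.343), Gli3 (0.113), Olfr149 (0.627), Olfr76 (0.019), Pcolce (0.142), Rax (0.14) and Tenm3 (-0.193). From arrays with rostral RNA in Cy3 they turned for Fgf15 (0.0153), Fgfr3 (0.0103), Mrc1 (0.062), Rdh10 (-0.018), Spry1 (-1.0), Tagln (-0.339) and Wnt3 (0.389). Tenm3 also turned in the fit of 6 arrays (-0.0568). Leaving out 1 MF1 pool spanned 0 for Crym (-0.153 to 0.0948), Ephx3 (-0.041 to 0.0882), Fgf15 (-0.0392 to 0.033), Nhlh2 (-0.868 to 0.0262), Spry4 (-0.0025 to 0.904) and Tenm3 (-0.114 to 0.158). The cause was not tested. With 3 pools and no signal levels, dim spots could not be told from bright ones.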

Other observations

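Neurotransmitter receptors were not described above, and ion channels only by their pool medians. Of 63 measured neurotransmitter receptors, 34 lay above 0 and 29 below (median 0.01). The GABA receptor subunit Gabra3 (-0.51, -1.86 and -1.18 in pools 1 to 3) and the nicotinic subunit Chrnb3 (-0.80, -1.02 and -0.52) lay below 0, while Gabrb1 (1.01, 0.39 and 1.64) and the adrenergic receptor Adra2c (0.55, 0.95 and 0.42) lay above. These were the 4 of 63 members (6.35%) at an unadjusted p under 0.05 in limma, against 4.05% of all features. Gabrb1 averaged 1.81 on arrays with rostral RNA in Cy3 and 0.22 on those with rostral RNA in Cy5. Ion channels had 37 of 91 members above 0, and Kcnc1, a potassium channel named after its values were seen, had 2.0 and 2.18 in the 2 pools that measured it. Olfactory and vomeronasal receptors, which the cortex is not known for, had 62 of 146 above 0 and 10 members at that p (6.85%), 3 above 0 and 7 below, against 2.12% and 1.93% of all features.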
